A study of Mus musculus with 8 samples.

Results

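DNA transposon subfamilies were described in total RNA of mouse embryonic stem (mES) cells in which METTL3, the enzyme that writes N6-methyladenosine on RNA, carries an FKBP12F36V degron tag. A subfamily was a member when its class was DNA and the authors' mean count over all libraries was at least 10. This held for 166 of 192 rows of that class, out of 1097 transposable element rows and 18694 rows in all. The 8 libraries came from clones C3 and H5, lines expanded from picked colonies and tagged at the C terminus, in a Cast x 129S background with a TetOn promoter in place of the endogenous Xist promoter on the 129S allele, as the labels give it. The study's text instead describes these clones in a background whose TetOn promoter is on the Cast X chromosome, so the allele is uncertain. For each clone, 2 libraries came from cells given dTAG-13 for 26 h and 2 from untreated cells, and doxycycline was given to none. Cells grew on mitomycin-inactivated fibroblast feeders. The sample label and the methods describe total RNA, whereas the extraction text describes chromatin RNA, so which fraction was sequenced is uncertain. Chromatin RNA holds more unspliced transcripts than total RNA.

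DNA transposons move by cut and paste: a transposase binds the inverted repeats at the ends of the element, excises it and inserts it elsewhere. Elements of the hAT superfamily, which includes the Charlie, Tip100 and Blackjack families, and of the Tc1/mariner superfamily, which includes Tigger, are the commonest in mammals. Many subfamilies, MER5A among them, are short and encode no transposase. No DNA transposon is known to be active in the mouse, and the copies are fossils that lie in introns, untranslated regions and intergenic sequence. A read counted for such a copy can therefore belong to a transcript of the gene around it, and the share of such reads was not tested here.

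All values below are the authors' mean count: reads divided by the size factor of each library and averaged over the 8 libraries, treated and untreated together. The column has no spread over libraries and cannot separate the treatments, so it supports no comparison of dTAG-13 with untreated cells. A subfamily is summed over all its copies, and neither the number nor the length of the copies was used. A higher mean count therefore means more reads and not a higher level per base. Intervals cover counting error only, at 95% (exact Poisson) and under equal levels in all libraries.

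The depth of the libraries was read from the lowest mean counts, which are built from whole reads. Size factors between 0.702 and 1.44 accounted for all 1064 rows with a mean count under 1, so the deepest library had 2.05 times the depth of the shallowest. At equal levels, a mean count of 10 stood for about 82.6 reads over the 8 libraries. The 6 stem cell markers examined (Pou5f1, Nanog, Sox2, Zfp42, Esrrb and Klf4) had mean counts from 1415 to 11934. The 5 fibroblast markers (Col1a1, Col1a2, Thy1, Pdgfra and Pdgfrb) had mean counts from 10.8 to 116, and whether these reads came from feeders or from the stem cells, and their part in the transposon reads, was not tested.

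The 166 subfamilies fell into 12 families, and 2 of these held nearly all reads. The hAT-Charlie family had 67 members and 70.9% of the members' summed mean count of 43237 (Wilson interval 70.8% to 71.1%). TcMar-Tigger had 41 members and 22.2% (22.1% to 22.3%). The 58 members of the other 10 families together held 6.90%, and hAT-Charlie and TcMar-Tigger, with 65.1% of the members, held 93.1%.

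**Figure D1:**
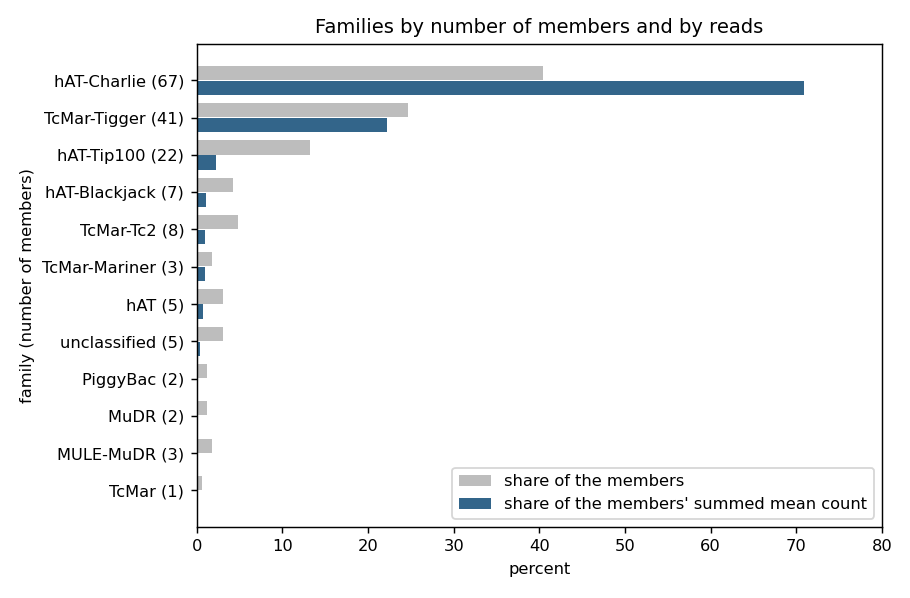
Share of the 166 members (grey bars) and share of their summed mean count (blue bars) in each family, both in percent; the number of members stands in parentheses. hAT-Charlie held 40.4% of the members and 70.9% of the summed mean count, whereas hAT-Tip100 held 13.3% of the members and 2.27% of the sum.

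Within the class the reads were concentrated in a few subfamilies. URR1B and URR1A, a pair of related hAT-Charlie elements found in rodents, had the highest mean counts of the class. The mean count was 6209 for URR1B (6156 to 6263) and 5999 for URR1A (5947 to 6053). Their counting intervals did not overlap, although the ratio of both values was only 1.03. The pair held 28.2% of the members' sum, and URR1A lay 2.43 times above the next subfamily.

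That next subfamily was MER2 of TcMar-Tigger, with a mean count of 2468 (2434 to 2502). It was followed by 3 short hAT-Charlie elements named as MER, for medium reiterated repeats. MER20, known for copies that serve as regulatory sequence in the uterine lining of placental mammals, had a mean count of 1941. MER5B had a mean count of 1852 and MER5A one of 1682. These 4 subfamilies and the URR1 pair did not overlap one another in their counting intervals.

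Mean counts of at least 1000 were reached by 10 subfamilies, which held 57.4% of the sum. Besides those above they were Tigger7 at 1303, MER33 at 1193, Charlie1a at 1109 and RCHARR1, a Charlie-like element of rodents, at 1045. Tigger7 belongs to TcMar-Tigger and the other 3 to hAT-Charlie. The next 10 in the order of mean count were MER58B (958), MER58A (951), RMER30 (857), Tigger1 (816), MER3 (760), MER58C (706), MER5A1 (639), Tigger12 (518), Charlie1 (395) and Tigger17a (372). Of the 20 highest members 15 were hAT-Charlie and 5 were TcMar-Tigger. MER58B and MER58A could not be ordered, since their intervals overlapped, and the same held for Charlie1 and Tigger17a. The intervals of the other 17 of 19 neighbouring pairs did not overlap, but these intervals leave out any spread between libraries. Over all members, 146 of 165 neighbouring pairs overlapped, so the order lower on the list was not resolved.

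**Figure D2:**
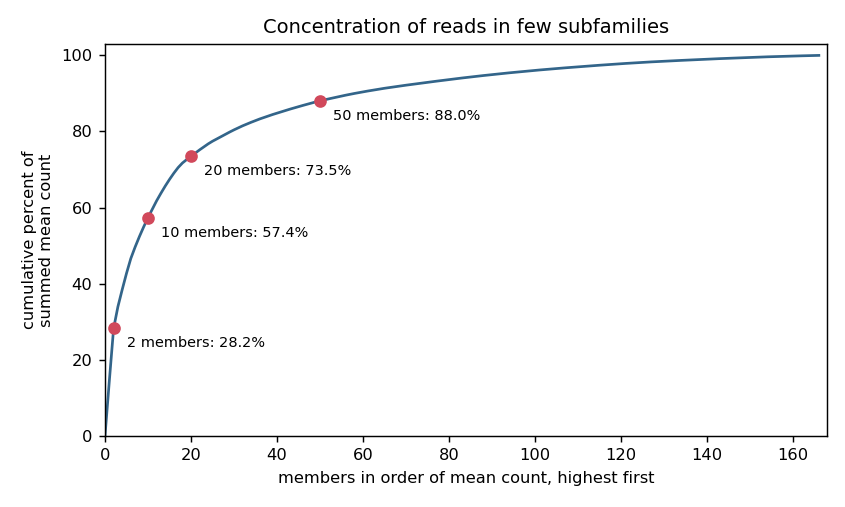
Cumulative percent of the members' summed mean count (y axis) against the members in order of mean count, highest first (x axis); red points mark the 2, 10, 20 and 50 highest members. The 20 highest members held 73.5% of the sum and the 50 highest held 88.0%.

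The bulk of the list was low. The median mean count was 58.2, with quartiles of 29.4 and 150.0, and the range from the highest to the lowest member was 526-fold. A mean count under 100 was seen for 110 members, which together held 10.5% of the sum. The members just inside the minimum were Charlie17a (12.3), MER45C (11.8) and MER96 (11.8), and those just outside it were Eulor1 (8.54), MER113B (8.34) and DNA1_Mam (8.19). The 26 rows of the class below the minimum added up to 106, which was 0.244% of the class.

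The hAT-Charlie members ranged from URR1B down to Charlie17a at 12.3, with a median of 81.0, and 30 of 67 had a mean count of at least 100. Without the URR1 pair, the other 65 members still held 59.5% of what remained of the sum, with a median of 66.9. TcMar-Tigger ranged from MER2 down to Tigger12c at 18.6, with a median of 80.4, and 19 of 41 members reached 100. The typical subfamily thus had a similar mean count in both families, and their summed mean counts differed 3.19-fold. Only 1 of 42 rows of TcMar-Tigger and 3 of 70 of hAT-Charlie lay below the minimum.

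**Figure D3:**
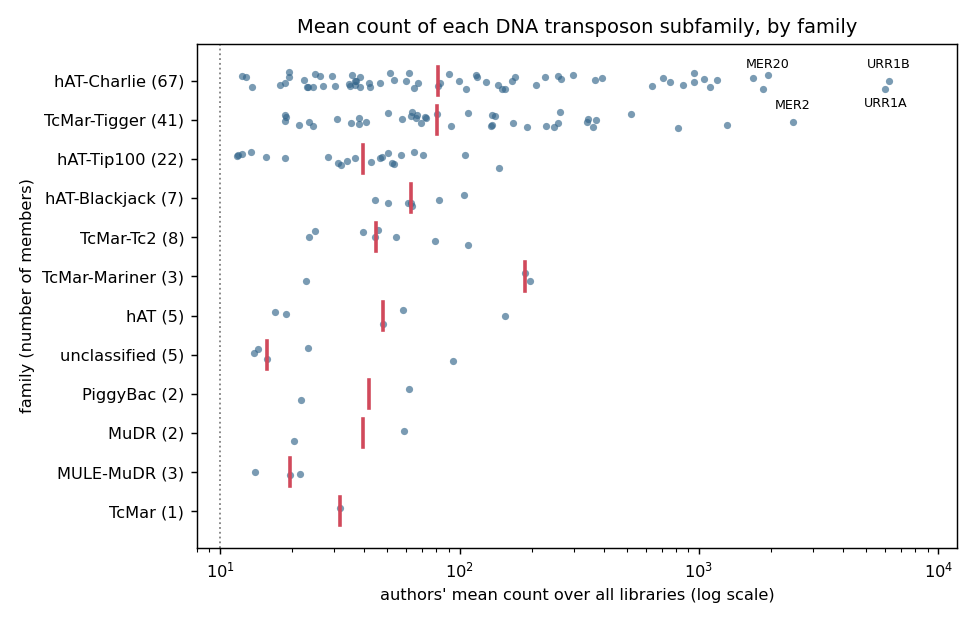
Mean count of each member over all libraries (x axis, log scale) by family (y axis, number of members in parentheses); each point is 1 subfamily, red bars are family medians and the dotted line is the minimum of 10. The points at and above 1000 belong to hAT-Charlie and TcMar-Tigger, and the highest member of another family was MARNA at 196.

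The other hAT families were lower. hAT-Tip100 had 22 members of 31 rows, from FordPrefect at 147 to MER96 at 11.8, and a median of 39.6. hAT-Blackjack had 7 members of 8 rows, between 44.3 (MER63C) and 105 (BLACKJACK). Its remaining row, MER94B at 5.40, lay below the minimum. The 5 members placed in hAT without a family ranged from MamRep4096 at 17.0 to MER53 at 154. Together with hAT-Charlie, hAT elements made up 101 members and 74.9% of the sum.

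Among Tc1/mariner elements outside Tigger, the 3 TcMar-Mariner members had the highest family median of the class, 188. MARNA had a mean count of 196 (187 to 206) and MMAR1 one of 188 (179 to 198). The intervals of MARNA and MMAR1 overlapped, and the third, MADE2, was at 22.9. The 8 TcMar-Tc2 members, which are Kanga elements and MER104, ranged from Kanga1d at 23.5 to Kanga2_a at 108. MER121, a conserved ancient repeat and the sole TcMar member without a family, had a mean count of 31.6.

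The remaining superfamilies had few members, none with a mean count of 100. Looper (61.8) and UCON29 (21.8) were the PiggyBac members, the superfamily of a transposon first described in a moth. The Mutator-like elements were listed under 2 family names: MuDR held Ricksha (58.5) and Ricksha_c (20.3), and MULE-MuDR held Ricksha_c (21.6), Ricksha_0 and Ricksha (14.0). Because Ricksha and Ricksha_c stood under both names, the 166 members had 164 distinct names. The 5 members with no superfamily ranged from MER135 at 13.8 to MER105 at 94.1, and 5 of the 10 such rows lay below the minimum.

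The names themselves were also grouped by their leading letters. The 56 MER subfamilies held 39.3% of the sum and the 28 Tigger subfamilies 12.97%, while the 37 Charlie subfamilies, which carry the name of the family with most reads, held 9.63%. The median was 80.6 for MER, 76.3 for Tigger and 37.1 for Charlie. The 7 Kanga subfamilies held 0.789%, the 5 MamRep subfamilies 0.446% and the 3 MamTip subfamilies 0.386%. The 3 Arthur, 5 Ricksha and 3 ORSL subfamilies held 0.317%, 0.310% and 0.217%.

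At least 2 members shared each of 34 root names. Of these, 9 had members within 2-fold of each other, 14 lay between 2-fold and 5-fold, and 11 spanned more than 5-fold. The median ratio of highest to lowest was 3.94. Rows below the minimum of 10 were left out, so the ratio is a lower limit where a root name also holds such rows. MER91C (4.30) was left out beside MER91B (33.9) and MER91A (52.4), and MER113B (8.34) beside MER113A (41.8) and MER113 (107). The split and the median therefore describe members only. The examples that follow were chosen after their values were seen, at both ends of the range of ratios. The 5 MER5 members held 9.81% of the sum and ran from MER5B at 1852 to MER5C1 at 29.2, a ratio of 63.4. MER20 was 15.1 times as high as MER20B (129), and MER2 was 9.35 times as high as MER2B (264). Of the 3 Tigger12 members, Tigger12 at 518 lay 27.8 times above Tigger12c. The Charlie1 elements lay near the median, with Charlie1a 4.30 times as high as Charlie1b (258). The evenest pair was URR1, at 1.03-fold. The 4 MER63 members of hAT-Blackjack lay within 1.86-fold, between 44.3 (MER63C) and 82.3 (MER63D), and Tigger5 (362) and Tigger5b (343) differed 1.06-fold.

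Set among the genes of the same table, the members ranged from the lower part of the scale of mean counts to near its top. The mean count of URR1B was above that of 97.9% of the 17597 genes, and that of MER2 was above 92.0%. MARNA, the highest member outside hAT-Charlie and TcMar-Tigger, was above 51.7%, near the middle. MER96, the lowest member, was above 24.1% of genes. The median gene had a mean count of 170 when no minimum was applied to genes. Among genes held to the same minimum as the members, the median was 373. The median member, summed over all its copies, had a mean count of 58.2.

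Against the other classes of transposable element, DNA transposons gave few reads for the number of their subfamilies. The class made up 17.5% of transposable element rows, and its members held 2.51% of the summed mean count of all transposable elements (2.507% to 2.523%, Wilson) and 0.265% of all rows of the table, genes included. SINE elements, with 35 rows, held 37.5%, and LINE elements, with 14.3% of rows, held 14.2%. LTR elements also held less than their share of rows, 23.4% of the sum against 58.9% of rows. Satellite rows held 3.98%. A single row of small nuclear RNA copies, 7SK, held 15.98%, and among the DNA, LINE, LTR and SINE classes alone the members' share was 3.24%. Of all DNA rows 5.21% reached a mean count of 1000, against 10.1% of LTR, 28.7% of LINE and 94.3% of SINE rows. The median of rows with at least 10 was 58.2 for DNA, 112 for LTR, 497 for LINE and 9676 for SINE. Neither the number nor the length of the copies was used, so the classes are not compared per copy or per base. These shares describe the same libraries, and no test over subfamilies was made, since subfamilies are not replicates.

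**Figure D4:**
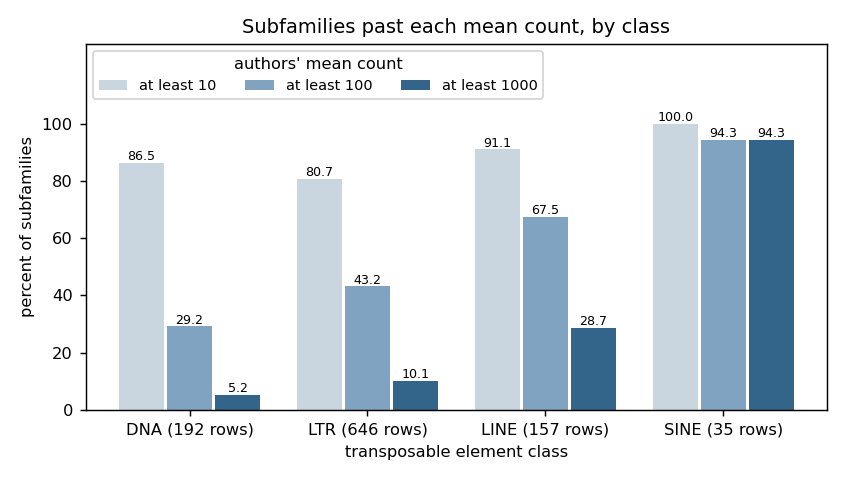
Percent of the subfamilies of each class (y axis) whose mean count was at least 10, 100 or 1000 (light to dark bars); the number of rows of each class stands on the x axis. A mean count of 10 was reached by 86.5% of DNA rows and 80.7% of LTR rows, and one of 1000 by 5.21% and 10.1%.

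Some host genes descend from transposases of DNA transposons, and a list of 22 was read as a counterpart to the fossils. Harbinger and Transib, under which some of these genes were listed, had no family of their own in the class. Rows were present for 20 of the 22 genes, of which 18 had a mean count of at least 10 and 10 one of at least 100. Levels between genes are given per kb of annotated exon (GENCODE vM21, GRCm38). The study names the UCSC genome browser as the source of its gene annotation, so the exons counted may differ from these. Among genes with hAT ancestry, Zbed4 was the highest at 309 per kb, from a mean count of 1781. Its body spans 88751660 to 88784516 on chromosome 15. Zbed6, a repressor of Igf2 in muscle, had 242 per kb, Zbed5 had 179, Zbed3 had 27.1 and Gtf2ird2, which contains a Charlie-derived domain, had 15.9. The body of Zbed6 lies within that of Zc3h11a on the same strand, so the origin of its reads is uncertain.

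Genes related to the pogo and Tigger transposases ran from 4.71 to 244 per kb, against 15.9 to 309 for those with hAT ancestry. Cenpb, whose protein binds centromeric satellite DNA, was at 244 per kb, from a mean count of 1190. It lies on chromosome 2 from 131175182 to 131180067, where its body overlaps that of Spef1 on the same strand. Tigd2 had 145 per kb and Pogz, a partner of heterochromatin protein, 79.7. Jrk (47.4), Jrkl (30.6), Tigd3 (18.2), Tigd5 (17.2) and Pogk (4.71) were lower on the same scale. Harbi1 (69.0 per kb) and Naif1 (24.2), of Harbinger descent, and the piggyBac-derived Pgbd5 (23.0) and Pgbd1 (10.4) were all above the minimum. Setmar had 112 per kb. It was kept in the counts of the list, although the mouse gene lacks the mariner transposase part that the primate gene carries.

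Rag1 and Rag2, the lymphocyte recombinase genes listed under Transib, were at a mean count of 0.212 (0.029 to 0.875) and 0.524 (0.132 to 1.24). Their intervals lay below those of all other measured genes of the list. Tigd4 and Zbed1 had no row in the table. The bodies of 12 of the 20 genes overlap another annotated gene, for some of them on the same strand. Whether counting used strand is also uncertain, so the values of these 12 genes may include reads of a neighbour.

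**Figure D5:**
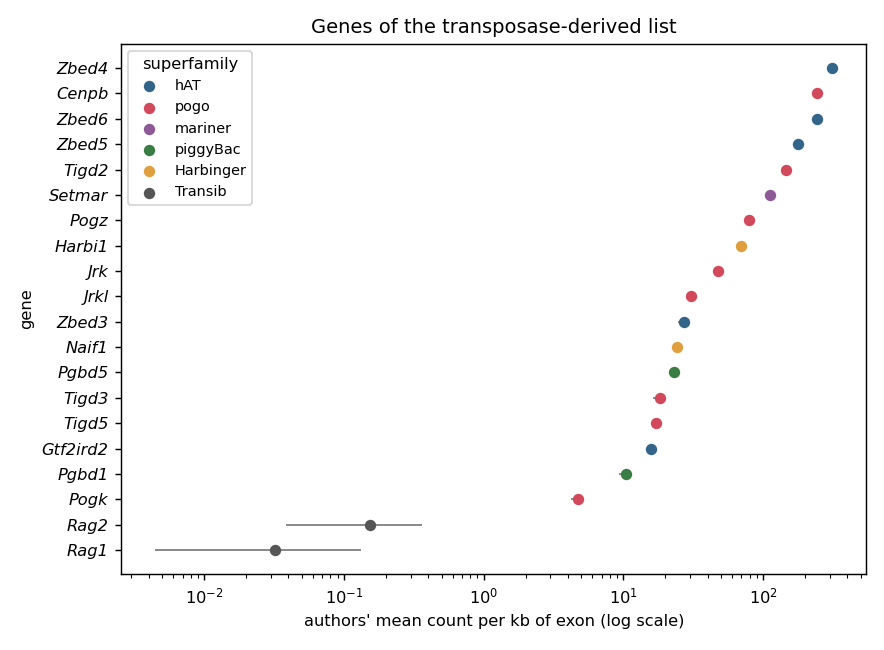
Mean count per kb of annotated exon (x axis, log scale) of the 20 measured genes of the transposase-derived list (y axis), coloured by superfamily; horizontal bars are 95% counting intervals, shorter than the point for most genes. Zbed4 was at 309 per kb and Pogk at 4.71, while Rag1 and Rag2 lay below 1.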

How the data were processed

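Total RNA libraries (8) were sequenced by the authors as stranded pairs. The authors removed ribosomal RNA reads with bowtie2, aligned pairs with STAR to the N-masked mm10 genome and kept unique alignments. PCR duplicates were marked and dropped (Picard), and reads were assigned to genes and to subfamilies of transposable elements by TEtranscripts with its defaults. The deposited signal column is the mean over all libraries of counts divided by size factors. Unique alignment loses reads of young, near-identical copies. The default counting ignores strand, whereas the name of the table holds the word reverse, so strand use is uncertain.

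The table of 18694 rows also holds 5 columns of the authors' own comparison of treated with untreated cells (fold change, standard error, statistic, p and adjusted p), which were not used. The mean pools all libraries, so no test was made.

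Members and lists were chosen with earlier results of these data known. Named subfamilies are the 20 highest, the highest and lowest of each family, 3 rows on either side of the minimum of 10 and the transposase-derived genes; name groups have at least 3 members. The rodent elements, members sharing a root name, MMAR1 and MER104 were also named after their values were seen. Size factors were found from steps between mean counts under 1 (tolerance 1e-09) and the method was tested on simulated data. Intervals (95%) are exact Poisson or Wilson and cover counting error only. Exon lengths are from GENCODE vM21 of GRCm38, the build of mm10. Python 3.11.15, pandas 2.3.3, numpy 2.4.6 and scipy 1.17.1 were used. Copy numbers and consensus sequences of the subfamilies were not analysed here. Other minimums, denominators and the removal of the highest members were tried as alternatives.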

Additional observations from a re-analysis of the deposited data

How the results depend on the processing

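Of 43 alternatives computed, 21 left the value within its counting interval or, for a count, within 1.5 times. With no minimum or a minimum of 1, the median mean count fell to 46.8 and 47.2. A minimum of 100 moved all 8 values computed for it. It gave 56 members, a sum of 38717, 2.252% of transposable element counts, 75.4% in hAT-Charlie and 22.05% in TcMar-Tigger. It also gave 64.1% in the 10 highest, a median of 258 and 10 genes of the transposase-derived list. Without URR1B, the sum was 37028 and the share of transposable element counts 2.16%, with 66.0% in hAT-Charlie, 25.9% in TcMar-Tigger and 52.8% in the 10 highest. Without URR1A and URR1B, an alternative chosen after seeing the data, these were 59.5%, 30.9% and 46.7%. Counting each subfamily once, hAT-Charlie held 40.4% and TcMar-Tigger 24.7%. With all rows as denominator the members' share was 0.265%, and with the DNA, LINE, LTR and SINE classes alone, also chosen later, 3.24%. In the settings that give both, hAT-Charlie held more than TcMar-Tigger. Leaving out single libraries was not possible, since the column pools them. No paired analysis was possible because the result comes from no test and the column carries no replicate numbers. Depth limits the order of members with low mean counts.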

Other observations

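Rows of uncertain or neighbouring class were low. The 16 rows whose class was written as DNA with a question mark are largely conserved ancient repeats named Eulor, UCON and MER. Of these, 5 reached a mean count of 10, with MER124 highest at 20.5, Eulor6B at 17.5 and Eulor5A at 16.1, and all 16 added up to 110. Helitrons, which move by rolling-circle replication and not by cut and paste, had 3 rows of class RC, led by Helitron3Na_Mam at 35.3, and 1 row marked as uncertain, Helitron2Na_Mam, at 15.2.

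A group of 4 members (URR1A, URR1B, RCHARR1 and RMER30) was picked as rodent elements after the values were seen. Whether it holds all rodent elements among the members was not tested, and MMAR1, with a mean count of 188, was left out. The 4 picked members held 14111 of the members' summed mean count, or 32.6%. All 4 were among the 20 highest, which does not describe rodent elements as a set. Ricksha had a mean count of 58.5 under the family name MuDR and 14.0 under MULE-MuDR, whereas Ricksha_c had 20.3 and 21.6 under the same names.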
